A study of Mus musculus with 5 samples.

Results

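Cadherins and non-clustered protocadherins, the cell adhesion genes named Cdh or Pcdh followed by a number only, were followed through the cell classes of 5 white adipose tissue depots of the mouse. The name rule found 34 of the 32285 genes in the count tables, 23 cadherins and 11 protocadherins, and no measured value entered the choice. Nuclei came from 10-week-old male C57BL/6J mice on chow diet, a wild-type strain, though the strain field gives HWAT as C57BL/9J, NWAT as C57BL/8J and MWAT as C57BL/7J. The 5 groups differed by depot: fat under the skin (subcutaneous, SWAT), around the kidney (perirenal, NWAT), on the epididymis (EWAT), along the gut (mesenteric, MWAT) and around the heart (HWAT). All mice were perfused with heparin to clear blood, and MWAT and SWAT were freed of their lymph nodes. Each library pooled mice, 20 for HWAT, 10 for MWAT and 6 each for the other depots, so a depot was 1 library and nothing here could be tested between depots. Single-nucleus 3′ RNA sequencing counted unique molecular identifiers (UMIs), 1 for each captured transcript.

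Cadherins are calcium-dependent adhesion proteins. Classical cadherins bind the same cadherin on the next cell and hold the actin skeleton through catenins, and which cadherin a cell makes helps to sort cells into layers. Protocadherins of the non-clustered kind adhere more weakly and are best known for wiring nerve cells, while in fat the most studied member is Cdh13 (T-cadherin), a cadherin with no cytoplasmic tail that binds adiponectin, the hormone adipocytes secrete.

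The members are long genes. Their median span in the annotation was 115 kb (4.54 to 1550.4 kb), against 12.3 kb over the 32158 annotated genes of the tables. RefSeq promoter windows of 300 bases (GRCm38.p6) were matched for 22 of the 34 members. The 3 printed here, all on the plus strand, belong to the member with the most counts (Pcdh7, chr5:57717831-57718130), a member that varied widely between depots in 2 classes (Cdh9, chr15:16728665-16728964) and a member highest in endothelium (Pcdh17, chr14:84443313-84443612). They are written 5′ to 3′ in lower case with each CG dinucleotide, the site of DNA methylation, in capitals.
Pcdh7: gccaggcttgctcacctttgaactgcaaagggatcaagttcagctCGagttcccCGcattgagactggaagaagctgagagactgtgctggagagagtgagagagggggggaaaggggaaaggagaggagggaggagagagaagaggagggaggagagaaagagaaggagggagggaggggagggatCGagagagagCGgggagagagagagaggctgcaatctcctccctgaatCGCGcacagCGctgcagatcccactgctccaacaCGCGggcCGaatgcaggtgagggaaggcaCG
Cdh9: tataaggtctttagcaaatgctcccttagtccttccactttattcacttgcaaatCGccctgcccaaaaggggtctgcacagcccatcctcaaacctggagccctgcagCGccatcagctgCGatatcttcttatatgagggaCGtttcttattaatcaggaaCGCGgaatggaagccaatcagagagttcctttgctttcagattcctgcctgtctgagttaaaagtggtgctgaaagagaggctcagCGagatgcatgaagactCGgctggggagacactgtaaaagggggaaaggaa
Pcdh17: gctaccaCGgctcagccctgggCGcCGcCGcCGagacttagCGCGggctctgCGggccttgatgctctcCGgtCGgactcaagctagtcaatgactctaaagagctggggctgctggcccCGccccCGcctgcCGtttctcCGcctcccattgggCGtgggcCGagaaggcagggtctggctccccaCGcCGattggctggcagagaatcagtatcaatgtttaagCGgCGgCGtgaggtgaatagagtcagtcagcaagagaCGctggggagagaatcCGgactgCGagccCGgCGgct
The windows differ in CG content, with 11 CG dinucleotides in Pcdh7, 8 in Cdh9 and 26 in Pcdh17, and their G or C content was 59.3%, 48.7% and 65.0%. Over the 22 member windows the median G or C content was 59.8%, against 52.7% over 27025 genes, and 10 (45.5%) were CpG-rich against 34.1% of all genes (observed over expected CG of 0.6 or more and at least 50% G or C). A TATAAA box on either strand was in 2 member windows (9.09%) against 14.2% of all, a GGGCGG box in 9 (40.9%) against 35.9%, and CAGGTG, an E-box that Snail and Zeb repressors bind, in 3 (13.6%) against 20.0%. Each motif was counted by itself, so matches that overlap count for both. Pcdh7 was 1 of the 3 with CAGGTG.

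The 5 libraries held 76040 barcodes. After removal of 149 nuclei of low quality and 9642 called doublets, 66249 remained, between 11094 (SWAT) and 16642 (MWAT) per depot, with median depths of 1210 UMIs (MWAT) to 2648 (NWAT). Pairs of libraries shared 40 to 87 barcodes, at most 0.552% of one library. Nuclei were clustered without the 34 members and classes were named from marker lists that held none of them; 1278 nuclei (1.93%) stayed unnamed. Different clusters held most of a class in different depots for adipocytes, mesothelium, pericytes, macrophages, T or NK cells and both blood and lymphatic endothelium: cluster 9 held 92.7% and 93.2% of mesothelial-like nuclei in EWAT and NWAT, while clusters 15 and 7 led in MWAT and clusters 2 and 48 in HWAT. HWAT sub-clusters of adipocytes, progenitors and endothelium were led in part by immunoglobulin and airway secretory genes, and MWAT progenitors by gut genes. The part of such RNA in the results was not tested. A level in one class is given, where it matters, beside the level that RNA carried over from a source class would give, taken as the source's ratio of member to marker counts times the source's marker level in the receiving class. Levels are UMIs per 1000000 UMIs of the class (CPM) with exact Poisson 95% intervals, which cover counting error only. A 3′ count depends on each gene's own ends, so levels are compared within a gene, between classes or depots, and never between genes.

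The members gave 121013 UMIs in retained nuclei, of which Pcdh7 (45981) and Cdh13 (25130) made up 58.8%. The 13 members with over 1000 UMIs carry most results; 31 had 20 or more, and Cdh7, Cdh15 and Pcdh8 had 6, 6 and 10. A class level is the mean CPM over depots with at least 50 nuclei of the class, and a member was called class-restricted when its highest class was 2-fold or more above the next, with 20 or more UMIs in the highest class. By that rule 13 of 31 members were restricted (41.9%), against 18.4% of 20258 genes. The map of levels by class shows them as isolated bright cells.

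**Figure D1:**
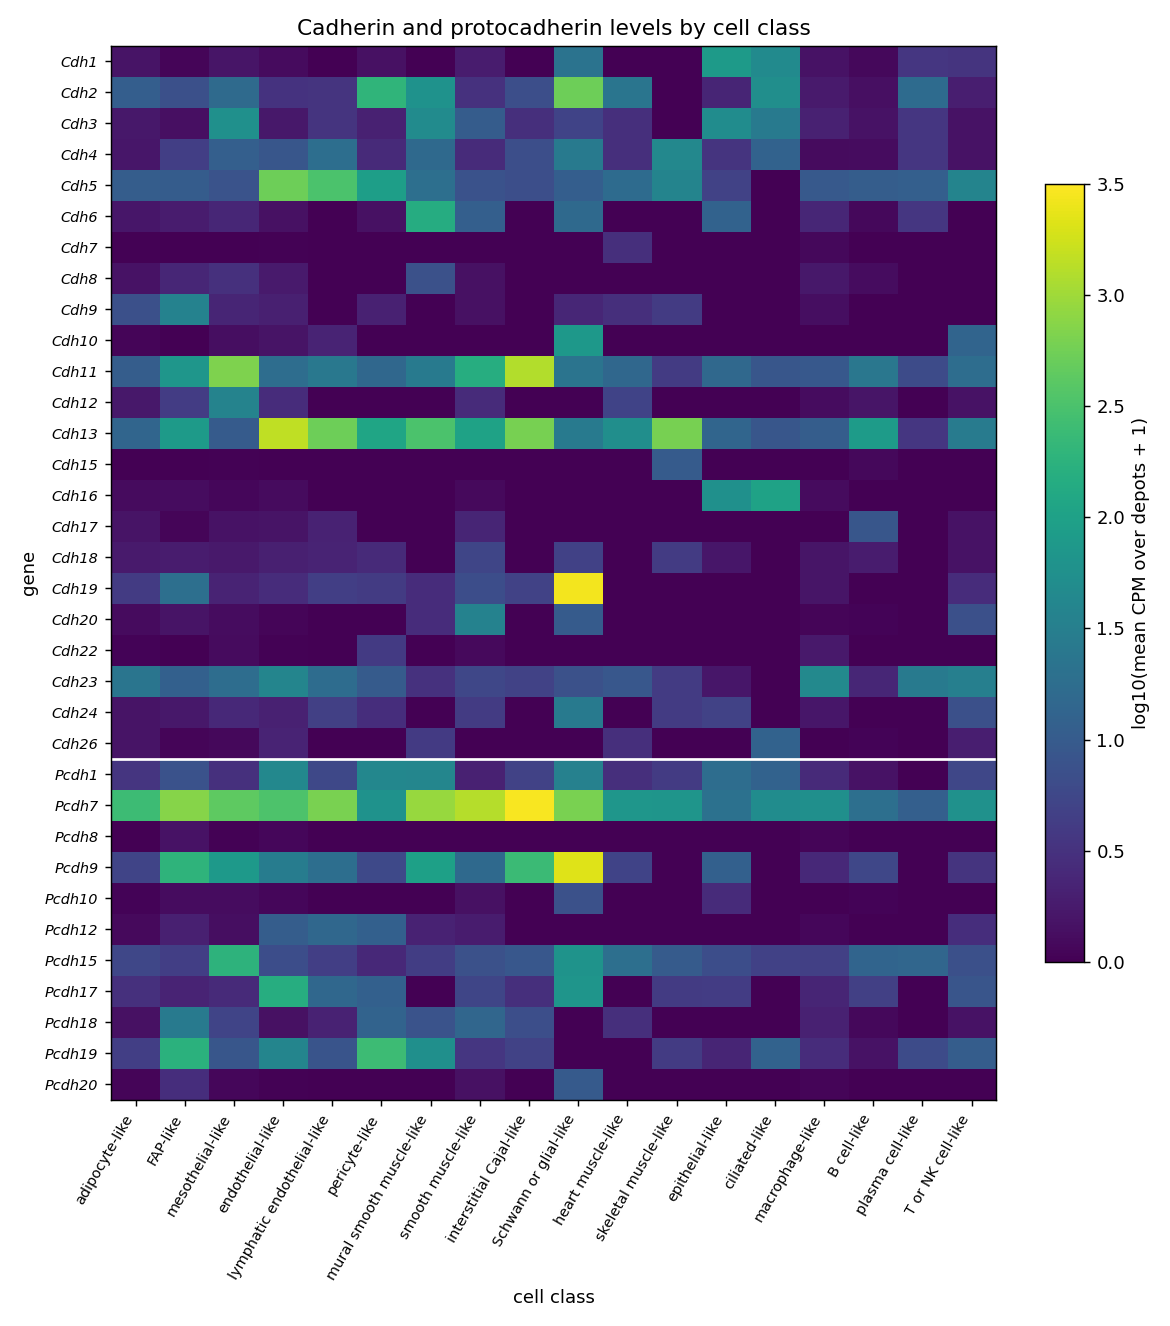
Mean CPM over depots, as log10(mean CPM + 1), for the 34 members (rows; cadherins above the white line, protocadherins below) in 18 cell classes (columns). Cdh19 and Pcdh9 are brightest in Schwann or glial-like nuclei (2738 and 2114 CPM), Cdh13 in endothelial-like nuclei (1458 CPM) and Pcdh7 in interstitial Cajal-like nuclei (2897 CPM).

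The restricted members sorted by class as follows. Schwann or glial-like nuclei were highest for Cdh2 (N-cadherin, the neural and mesenchymal cadherin), Cdh10, Cdh19 and Pcdh9. Their levels there were 531, 72.0, 2738 and 2114 CPM, or 2.73, 5.80, 153 and 8.80 times the next class. Endothelial-like nuclei were highest for Cdh13 (1458 CPM, 2.41 times skeletal muscle-like nuclei) and Pcdh17 (151 CPM, 2.26 times Schwann or glial-like nuclei). Mesothelial-like nuclei, from the lining of the body cavities, were highest for Cdh12 (36.2 CPM, at least 6.05-fold above the next class, whose level is the 3-count floor) and Pcdh15 (184 CPM, 2.97 times Schwann or glial-like nuclei). Contractile cells held 2 of the calls: Cdh6 in mural smooth muscle (148 CPM, 9.96 times the next) and Cdh20 in the smooth muscle of the MWAT library (35.0 CPM, 3.81 times). The remaining calls were Cdh9 in fibro-adipogenic progenitors (FAPs, 34.8 CPM, 5.72 times adipocytes), Cdh17 in B cells (7.71 CPM, 5.92 times) and Pcdh7 in interstitial Cajal-like nuclei, the pacemaker cells of gut muscle (2897 CPM, 2.26 times smooth muscle). Some calls ended when 1 library was left out. Pcdh15 and Pcdh17 lost theirs without SWAT, Cdh10, Cdh20 and Pcdh7 without MWAT, and Cdh17 without EWAT or without HWAT. The SWAT and EWAT losses did not remove a library where the member was high in its called class. SWAT held 1 mesothelial-like nucleus and was the lowest depot for endothelial Pcdh17 (111 CPM). For both members the next class, Schwann or glial-like nuclei, was averaged over SWAT and MWAT only. Without SWAT that class was MWAT alone, so both calls depended on SWAT glia being in the average. Cdh17 had 0 UMIs in EWAT, and why its call ended without EWAT was not tested. With called doublets kept, Cdh2, Cdh6, Cdh9, Cdh12, Cdh20 and Pcdh17 lost their calls.

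Several well-known tissue cadherins missed the call, with 2 classes within 2-fold of each other. Cdh5 (VE-cadherin, the adhesion protein of endothelial junctions) averaged 538 CPM in blood endothelium and 326 in lymphatic endothelium. Cdh1 (E-cadherin) and Cdh16 (Ksp-cadherin) were highest in epithelial-like and ciliated-like nuclei: 80.8 and 45.8 CPM for Cdh1, 56.1 and 103 for Cdh16. Cdh3 (P-cadherin) averaged 55.9 CPM in mesothelium and 49.1 in epithelium, where all of it came from the EWAT nuclei. Cdh11 (OB-cadherin, of mesenchyme) was spread over Cajal-like (1264) and mesothelial-like nuclei (672), and Pcdh19 over pericytes (247) and FAPs (172). Cdh23 was near-equal in macrophages (42.9) and endothelium (38.3), as was Pcdh1 in endothelium (41.7) and pericytes (40.1). Cdh4, Pcdh12 and Pcdh18 led in skeletal muscle (42.5 CPM), lymphatic endothelium (13.8) and FAPs (25.5), each under 2-fold above the next class or under 20 UMIs. The other 7 tested members (Cdh8, Cdh18, Cdh22, Cdh24, Cdh26, Pcdh10 and Pcdh20) had between 21 and 138 UMIs over all compared classes and 20 or fewer in their highest class.

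Within a class, a member was said to differ between depots when 1 depot's log2 CPM lay 1 or more (2-fold) from the mean of the other depots, among genes with 20 or more UMIs. By this rule 21 of 24 members differed in adipocytes, against 43.8% of all genes. In mesothelium 16 of 20 differed (29.9% of all genes), and in endothelium 8 of 14 (35.0%). FAPs had 6 of 13 (36.6%), pericytes 6 of 7 (57.0%), mural smooth muscle 4 of 8 (21.0%), macrophages 4 of 6 (35.1%), B cells 4 of 5 (52.9%) and T or NK cells 2 of 2 (48.1%). Leaving out a depot lowered the number tested and the background as well. Without HWAT the counts were 9 of 16 in mesothelium (17.9% of all genes), 3 of 12 in FAPs (23.8%), 2 of 5 in macrophages (21.9%) and 1 of 1 in T or NK cells (25.6%). Without SWAT the count was 5 of 12 in endothelium (33.5%), and without EWAT it was 0 of 1 in T or NK cells (37.3%). The pericyte count was 2 of 3 (35.7%) without a pericyte-like cluster that held endothelial markers, and 3 of 7 (60.9%) with the mean of each nucleus's CPM. The members' shares exceeded the background by most in adipocytes and mesothelium among classes with 10 or more tested; T or NK cells had only 2 tested. Of the 24 adipocyte members, 12 were called higher in MWAT (13.4% of all genes) and 10 lower in NWAT (13.5%). Of those called higher in MWAT, only Cdh11 (24.3 CPM) and Pcdh9 (12.7 CPM) reached 10 CPM there. Each of these lay below the carried level given for it further on. Cdh1, Cdh3, Cdh6, Cdh8, Cdh18 and Cdh24 were called on 6 to 13 UMIs in MWAT. The median member in adipocytes was 1.07 higher in MWAT than in the other depots on the log2 scale (0.10 over all genes) and -0.87 in NWAT (0.03). In mesothelium the median member was -0.75 in HWAT (-0.17 over all genes).

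Blood endothelium carried 2 abundant cadherins, Cdh5 and Cdh13, in every depot, with each lowest in HWAT. Cdh5 (chr8:104101625-104144511, plus strand) was 538 CPM in SWAT (511 to 565), 659 in NWAT (632 to 687), 635 in EWAT (610.5 to 661), 461 in MWAT (432 to 492) and 397 in HWAT (341 to 459). NWAT and EWAT were highest and their intervals overlapped; HWAT was lowest, with an interval below those of SWAT, EWAT and NWAT and overlapping that of MWAT. Cdh13 (chr8:118283733-119324921, plus strand), a 1041 kb gene, was 1144 CPM in SWAT (1105 to 1183), 2119 in NWAT (2069.9 to 2168), 2034 in EWAT (1989.6 to 2079), 1019 in MWAT (975 to 1064) and 973 in HWAT (884 to 1068). EWAT and NWAT stood above the other 3 depots, whose intervals overlapped for MWAT and HWAT. Neither reached the 2-fold rule against the mean of the others.

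Several endothelial members were graded by vessel type. Sub-clusters named from capillary, arterial and venous markers held 50 or more nuclei in SWAT, EWAT, MWAT and NWAT. Capillary-like nuclei were 890 of 1909 in SWAT, 979 of 1727 in NWAT and 1041 of 2219 in EWAT. In MWAT they were 517 of 1720 and in HWAT 14 of 336, where 288 nuclei lay in an unnamed sub-cluster. The part of this mix of vessel types in the depot levels of the whole class was not tested. Cdh5 in capillary-like nuclei was 751 CPM in SWAT, 812 in NWAT, 931 in EWAT and 709 in MWAT, above arterial (445 CPM in SWAT, 582 in NWAT, 454 in EWAT and 373 in MWAT) and venous-like nuclei (393 CPM in SWAT, 467 in NWAT, 459.7 in EWAT and 364 in MWAT) of the same depot in all 4 depots. Cdh13 was low in veins: 551 CPM in SWAT, 971 in NWAT, 915 in EWAT and 356 in MWAT, against 1592 CPM in SWAT, 2952 in NWAT, 2908 in EWAT and 1402 in MWAT in capillaries and 1452 CPM in SWAT, 1902 in NWAT, 2663 in EWAT and 1699 in MWAT in arteries. Cdh23, better known from the inner ear, was a capillary gene here, at 71.6 CPM in SWAT, 88.5 in NWAT, 77.2 in EWAT and 62.1 in MWAT. Its arterial levels were 10.1 CPM in SWAT, 10.4 in NWAT, 6.09 in EWAT and 4.36 in MWAT and its venous levels 21.9 CPM in SWAT, 31.8 in NWAT, 13.8 in EWAT and 12.0 in MWAT, each below the capillary level of that depot. Pcdh1 was 58.0 CPM in SWAT, 82.1 in NWAT, 91.9 in EWAT and 78.0 in MWAT in capillaries and 12.0 CPM in SWAT, 28.4 in NWAT, 24.6 in EWAT and 12.0 in MWAT in veins, with arteries between or near the capillaries (42.5 CPM in SWAT, 62.6 in NWAT, 54.8 in EWAT and 21.8 in MWAT).

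**Figure D2:**
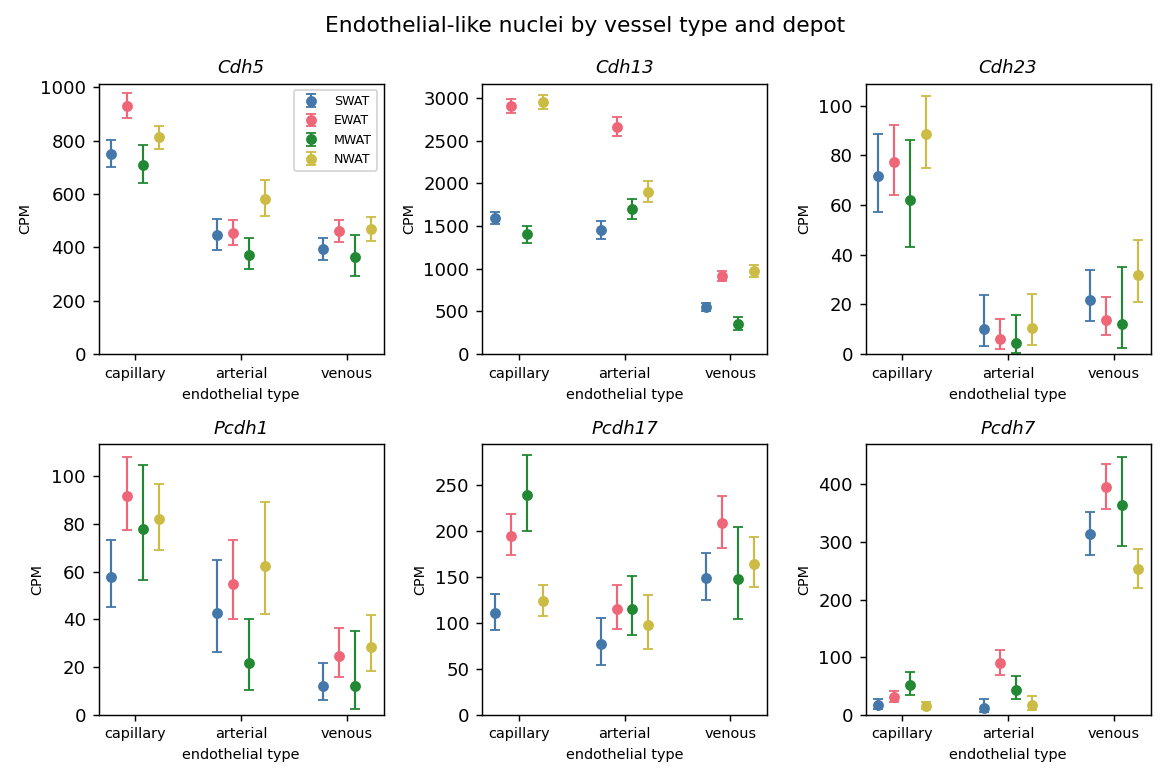
CPM of 6 members (panels) in capillary-like, arterial-like and venous-like endothelial nuclei of 4 depots (colours); bars are exact Poisson 95% intervals. Cdh5, Cdh23 and Pcdh1 are highest in capillaries, Cdh13 is lowest in veins, and Pcdh7 stands at 253 to 395 CPM in veins and at most 88.9 in the other types.

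Pcdh7 was the venous member. Its venous levels were 313 CPM in SWAT, 253 in NWAT, 395 in EWAT and 364 in MWAT, its capillary levels 17.0 CPM in SWAT, 15.2 in NWAT, 30.6 in EWAT and 51.4 in MWAT and its arterial levels 12.1 CPM in SWAT, 16.7 in NWAT, 88.9 in EWAT and 43.6 in MWAT. The venous intervals lay above both other types in each of the 4 depots. Pcdh17, a delta-protocadherin, was lowest in arteries in each of the 4 depots: it was 111 CPM in SWAT, 124 in NWAT, 195 in EWAT and 239 in MWAT in capillaries, 149 CPM in SWAT, 164 in NWAT, 209 in EWAT and 148 in MWAT in veins and 76.9 CPM in SWAT, 98.0 in NWAT, 116 in EWAT and 116 in MWAT in arteries. Pcdh12 (VE-cadherin-2, a protocadherin of endothelial cells) had 0 UMIs in the arterial-like nuclei of SWAT, MWAT and NWAT and 1 in EWAT. In capillaries Pcdh12 was 7.67 CPM in SWAT, 18.2 in NWAT, 16.6 in EWAT and 17.7 in MWAT and in veins 3.29 CPM in SWAT, 14.7 in NWAT, 12.8 in EWAT and 12.0 in MWAT; the arterial upper limits reach 8.04 CPM and overlap the capillary interval in SWAT. Pcdh19 was 99.1 CPM in SWAT, 66.7 in NWAT, 69.4 in EWAT and 17.4 in MWAT in arteries, 39.2 CPM in SWAT, 37.5 in NWAT, 61.9 in EWAT and 60.3 in MWAT in capillaries and 25.2 CPM in SWAT, 71.5 in NWAT, 46.3 in EWAT and 36.0 in MWAT in veins, with no type highest throughout.

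Over the whole of the endothelial class, Pcdh7 was 133 CPM in SWAT (120.3 to 147), 97.0 in NWAT (86.7 to 108), 411 in EWAT (391 to 431), 646 in MWAT (612 to 682) and 348 in HWAT (296 to 407). MWAT was highest, 1.57 times (interval 1.46 to 1.69) EWAT, and NWAT lowest, and no interval overlapped another except those of EWAT and HWAT. A pair of unnamed sub-clusters, each nearly all from 1 depot, held 1162 of the 1304 MWAT and 1025 of the 1613 EWAT UMIs: 581 MWAT nuclei with Pcdh7 at 1604 CPM (1513 to 1699) and Cdh13 at 497, and 149 EWAT nuclei with Pcdh7 at 3099 CPM (2912 to 3295) and Cdh13 at 296. Both scored highest on the venous list, with 5 (MWAT) and 6 (EWAT) of its 7 markers raised 2-fold or more. They stayed unnamed because no venous marker was among their leading genes. Pcdh9 was 3.04 CPM in SWAT (1.39 to 5.77), 3.85 in NWAT (2.05 to 6.59), 71.8 in EWAT (63.7 to 80.7), 21.8 in MWAT (15.8 to 29.3) and 42.1 in HWAT (25.3 to 65.7), high in EWAT, HWAT and MWAT and low in SWAT and NWAT with no overlap between these sets. In EWAT, 236 of its 282 UMIs lay in 122 arterial-like nuclei, at 744 CPM (653 to 846); the same sub-cluster in MWAT (222 nuclei) had 114 CPM (78.2 to 159.6).

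In endothelium Pcdh17 was 111 CPM in SWAT, 127 in NWAT, 177 in EWAT, 151 in MWAT and 188 in HWAT, Pcdh1 36.8 CPM in SWAT, 60.2 in NWAT, 57.0 in EWAT, 30.2 in MWAT and 24.4 in HWAT, and Cdh23 42.6 CPM in SWAT, 57.5 in NWAT, 37.7 in EWAT, 27.3 in MWAT and 26.6 in HWAT. The highest depot differed by member, HWAT for Pcdh17 and NWAT for the other 2, and each highest interval overlapped the next. As a direct ratio, Cdh23 in NWAT was 1.35 times (interval 1.07 to 1.70) SWAT. The ratio over EWAT was 1.06 (0.838 to 1.33) for Pcdh17 in HWAT and 1.06 (0.869 to 1.28) for Pcdh1 in NWAT. Pcdh19 was 42.6 CPM in SWAT, 50.1 in NWAT, 52.2 in EWAT, 30.7 in MWAT and 13.3 in HWAT, with HWAT called lower on 6 UMIs. Cdh4 (R-cadherin) was 2.36 CPM in SWAT, 8.60 in NWAT, 11.2 in EWAT, 7.44 in MWAT and 8.86 in HWAT, called lower in SWAT (-1.88 ± 1.11 on the log2 scale), and Pcdh12 was 5.41 CPM in SWAT, 14.8 in NWAT, 10.9 in EWAT, 6.94 in MWAT and 11.1 in HWAT. Cdh11 was 4.73 CPM in SWAT, 4.74 in NWAT, 10.9 in EWAT, 29.7 in MWAT and 33.2 in HWAT. Its MWAT and HWAT levels were near the carried level from mesothelium, 6.02 CPM in NWAT, 26.2 in EWAT, 36.2 in MWAT and 26.7 in HWAT. In lymphatic endothelium, Pcdh7 was 402 CPM in EWAT and 842 in MWAT, Cdh13 626 CPM in EWAT and 452 in MWAT and Cdh5 369 CPM in EWAT and 283 in MWAT. Of its 2 main clusters, one had Pcdh7 at 966 CPM and Cdh13 at 930.1, the other 205 and 257. The first held 57.5% of the EWAT nuclei of the class and 46.2% of those of MWAT, the other 37.0% and 53.1%.

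Cdh13 is known as a receptor for adiponectin, so its levels were set beside the hormone gene Adipoq and the other receptors Adipor1 and Adipor2. Adipoq in adipocytes was 1283 CPM in SWAT, 1920.4 in NWAT, 1707 in EWAT, 1584 in MWAT and 1625 in HWAT, Adipor2 1489 CPM in SWAT, 1747 in NWAT, 1508 in EWAT, 1521 in MWAT and 1466 in HWAT and Adipor1 33.3 CPM in SWAT, 21.7 in NWAT, 34.1 in EWAT, 32.4 in MWAT and 20.8 in HWAT; none of the 3 differed 2-fold between depots in adipocytes. Adipor2 was highest in adipocytes (1546 CPM, 3.19 times the next class). Cdh13 in adipocytes was 17.9 CPM in SWAT, 9.57 in NWAT, 14.9 in EWAT, 13.2 in MWAT and 8.39 in HWAT, which is below the carried level from endothelium in every depot (23.3 CPM in SWAT, 13.4 in NWAT, 22.8 in EWAT, 19.2 in MWAT and 10.1 in HWAT). Cdh5 in adipocytes was 17.3 CPM in SWAT, 5.17 in NWAT, 7.95 in EWAT, 11.3 in MWAT and 7.14 in HWAT, with carried levels of 10.9 CPM in SWAT, 4.17 in NWAT, 7.12 in EWAT, 8.67 in MWAT and 4.13 in HWAT. Leaving out adipocyte-like sub-clusters led by blood, gut or neuron genes took Cdh5 to 7.41 CPM in SWAT, 3.68 in NWAT, 6.29 in EWAT, 5.02 in MWAT and 2.87 in HWAT and Cdh13 to 8.57 CPM in SWAT, 7.68 in NWAT, 12.0 in EWAT, 6.28 in MWAT and 2.23 in HWAT. The SWAT call for Cdh5 ended with that step. In FAPs Cdh13 was 113 CPM in SWAT, 72.4 in NWAT, 112 in EWAT, 92.0 in MWAT and 10.4 in HWAT, against carried levels of 35.8 CPM in SWAT, 99.4 in NWAT, 88.2 in EWAT, 41.2 in MWAT and 11.8 in HWAT. SWAT, EWAT and MWAT lay above their carried levels and NWAT and HWAT below.

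Among classical type I cadherins, Cdh2 set apart a group of adipocytes. In all adipocyte-like nuclei Cdh2 (chr18:16588877-16809246, minus strand) was 14.2 CPM in SWAT (12.3 to 16.2), 3.29 in NWAT (2.59 to 4.14), 0.773 in EWAT (0.458 to 1.22), 6.80 in MWAT (4.96 to 9.10) and 26.4 in HWAT (21.1 to 32.6). HWAT was highest, 1.86 times (interval 1.43 to 2.41) SWAT, and EWAT lowest with 18 UMIs; no pair of intervals overlapped. Of the 85 HWAT UMIs, 71 lay in 237 thermogenic-like nuclei, named from brown-fat markers such as Ucp1. There Cdh2 was 129 CPM (101 to 163), against 5.24 CPM (2.87 to 8.80) in the other 1367 HWAT adipocytes. In the same thermogenic-like nuclei Pcdh7 was 45.5 CPM (29.4 to 67.2) against 136 CPM (122 to 151) in the others, and Cdh23 had 0 UMIs against 7.12 CPM (4.28 to 11.1). With thermogenic-like nuclei set aside, SWAT was the depot with most Cdh2 in adipocytes, above a carried level of 7.41 CPM from glia; in MWAT the carried level (37.5 CPM) was above the measured one.

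**Figure D3:**
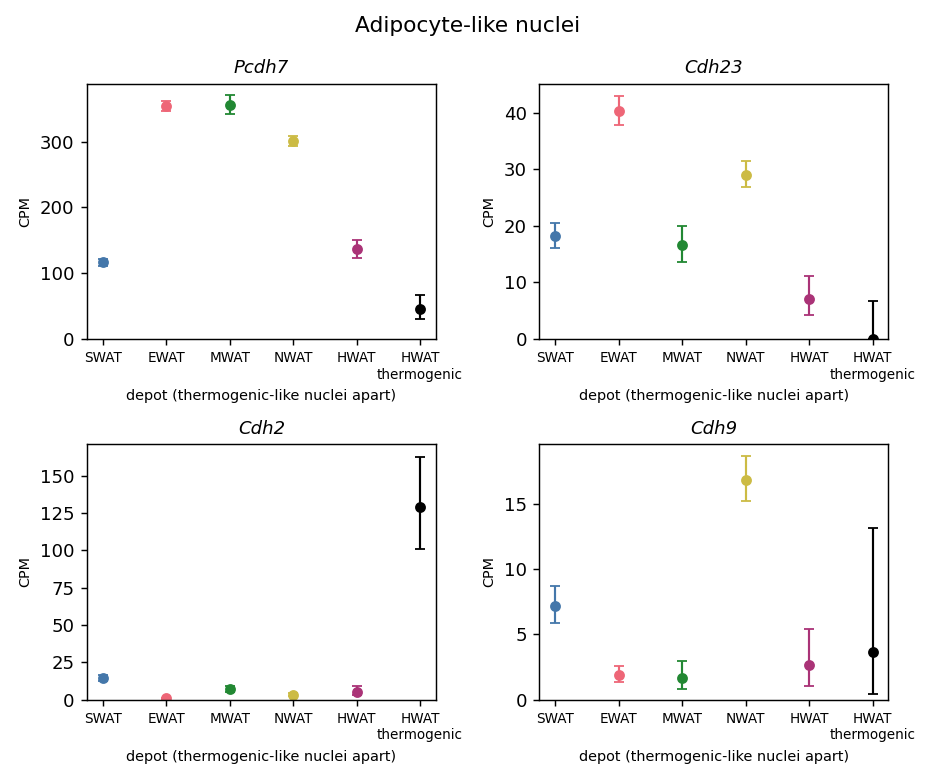
CPM of Pcdh7, Cdh23, Cdh2 and Cdh9 in adipocyte-like nuclei by depot, with the 237 thermogenic-like HWAT nuclei apart (black); bars are exact Poisson 95% intervals. Pcdh7 is high in EWAT, MWAT and NWAT, Cdh9 in NWAT, and Cdh2 in thermogenic-like nuclei at 129 CPM.

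Cdh2 was also a mural and glial gene. In pericytes it was 118 CPM in SWAT, 119 in NWAT, 301 in EWAT, 214 in MWAT and 222 in HWAT, and its intervals in EWAT and SWAT did not overlap. A pericyte-like cluster with raised endothelial markers held 64 of the 161 SWAT, 63 of the 134 NWAT and 15 of the 91 EWAT pericytes. Without it Cdh2 was 246 CPM in SWAT, 294 in NWAT, 403 in EWAT, 321 in MWAT and 246 in HWAT and stopped being restricted to glia, since pericytes came within 2-fold. Schwann or glial-like nuclei had 576 CPM (502 to 659) in MWAT and 486 CPM (374 to 621) in SWAT. Mesothelial Cdh2 was 12.8 CPM in NWAT, 23.0 in EWAT, 6.13 in MWAT and 18.3 in HWAT, higher in EWAT and lower in MWAT by the rule. In HWAT, 274 heart muscle-like nuclei, where adhesion between heart muscle cells uses N-cadherin, had only 21.9 CPM (11.0 to 39.3) from 11 UMIs. That cluster does not stand for heart muscle alone: its adipocyte markers summed to 6927 CPM beside 7003 CPM for heart muscle markers, and Adipoq was higher there than in adipocytes, so no level is read for heart muscle.

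Cdh1 and Cdh3, the epithelial type I cadherins, split by epithelium. The 290 EWAT epithelial-like nuclei had Cdh3 at 98.2 CPM (77.5 to 123) and Cdh1 at 49.7 CPM (35.4 to 68.0). The 105 HWAT nuclei, a separate cluster, had no Cdh3 UMIs and Cdh1 at 112 CPM (77.0 to 157). Cdh1 thus differed by more than counting error between the 2 epithelia. In mesothelium Cdh3 was 53.2 CPM in NWAT, 64.5 in EWAT, 70.7 in MWAT and 35.1 in HWAT; HWAT was lowest, its interval below the others, and MWAT and EWAT overlapped. Cdh4 in mesothelium was 15.2 CPM in NWAT, 15.4 in EWAT, 7.77 in MWAT and 3.34 in HWAT, high in EWAT and NWAT and lowest in HWAT. The 142 skeletal muscle-like nuclei of NWAT had 42.5 CPM (23.2 to 71.3) of Cdh4 and 604 CPM (523 to 694) of Cdh13. Cdh15 (M-cadherin), a muscle cadherin, had 3 UMIs there, too few for a level.

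Type II cadherins are adhesion proteins best known in neurons and mesenchyme. Cdh9 (chr15:16728756-16857094, plus strand), whose promoter is printed above, was 101 CPM in SWAT (87.2 to 116), 61.1 in NWAT (50.3 to 73.4), 5.04 in EWAT (2.42 to 9.26), 1.01 in MWAT (0.0256 to 5.63) and 6.25 in HWAT (1.29 to 18.3) in FAPs, from 201, 113, 10, 1 and 3 UMIs. SWAT and NWAT were high, SWAT 1.65 times (interval 1.30 to 2.09) NWAT, and their intervals did not overlap those of the other 3 depots. FAPs of the Dpp4 type, an early progenitor, had 220.5 CPM in SWAT, 61.7 in NWAT and 16.0 in EWAT of Cdh9. The same 2 depots led in adipocytes, in the other order: 7.19 CPM in SWAT (5.89 to 8.68), 16.9 in NWAT (15.2 to 18.7), 1.89 in EWAT (1.37 to 2.54), 1.66 in MWAT (0.830 to 2.98) and 2.80 in HWAT (1.28 to 5.31). There NWAT was 2.35 times (interval 1.89 to 2.94) SWAT, and its level was above what FAP RNA would carry (3.62 CPM in SWAT and 1.04 in NWAT).

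**Figure D4:**
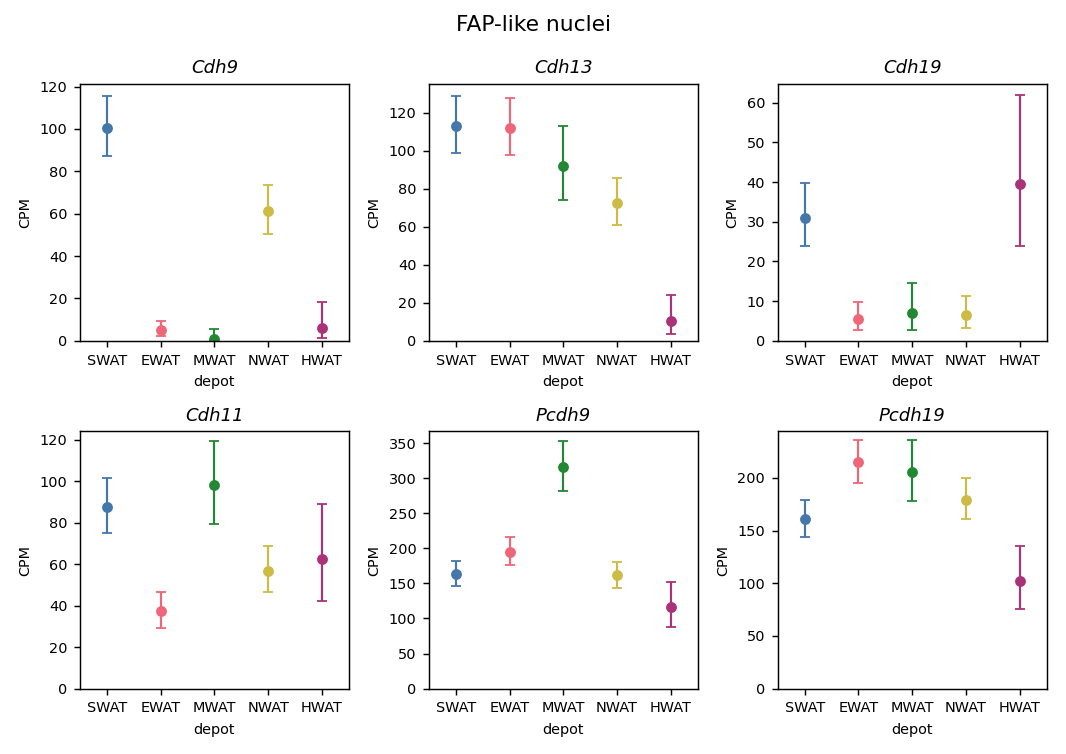
CPM of 6 members in FAP-like nuclei by depot; bars are exact Poisson 95% intervals. Cdh9 stands at 101 CPM in SWAT and 61.1 in NWAT and at most 6.25 elsewhere, Cdh19 is high in SWAT and HWAT, and Cdh13 and Pcdh19 are lowest in HWAT.

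Cdh11 (chr8:102632095-102785642, minus strand), first described in bone-forming cells, was mainly a mesothelial gene: 682 CPM in NWAT (647 to 718), 895 in EWAT (863 to 929), 685 in MWAT (662 to 708) and 426 in HWAT (410.4 to 441). EWAT was highest, HWAT lowest, and MWAT and NWAT overlapped. The 2 largest MWAT mesothelial clusters had 344 and 1127 CPM, a wider span than between depots. FAP levels were 87.6 CPM in SWAT, 56.7 in NWAT, 37.3 in EWAT, 98.0 in MWAT and 62.5 in HWAT, with EWAT lowest and below the intervals of SWAT and MWAT. In adipocytes Cdh11 was 3.56 CPM in SWAT, 2.27 in NWAT, 8.89 in EWAT, 24.3 in MWAT and 9.94 in HWAT, below the level carried from mesothelium in the 4 depots that hold it (3.33 CPM in NWAT, 11.8 in EWAT, 25.7 in MWAT and 13.6 in HWAT). In macrophages it was 1.23 CPM in SWAT, 1.69 in NWAT, 10.8 in EWAT, 16.1 in MWAT and 11.8 in HWAT, again below mesothelial carry-over in those 4 depots, and in B cells 0 CPM in NWAT, 52.9 in MWAT and 17.9 in HWAT, where only HWAT had more than 3 UMIs. Cajal-like nuclei had 1264 CPM (1168 to 1365), and 1 of 4 smooth muscle clusters had 988 CPM against at most 141 in the others.

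Cdh12 was found mostly in mesothelium in these nuclei, with 594 of its 669 UMIs over the compared classes. It was 56.5 CPM in NWAT (46.8 to 67.6), 17.9 in EWAT (13.6 to 23.2), 33.3 in MWAT (28.4 to 38.8) and 37.0 in HWAT (32.6 to 41.8), highest in NWAT and lowest in EWAT, whose interval lay below the others. One of the HWAT clusters held 90.2 CPM. Cdh6 (K-cadherin) was the mural smooth muscle member: 112 CPM in SWAT (69.6 to 172), 157 in EWAT (114 to 209.8) and 173 in MWAT (114 to 252), with all intervals overlapping. Its mural clusters differed more, at 209, 140.4 and 63.0 CPM. In gut-type smooth muscle of MWAT, Cdh20 was 35.0 CPM (29.8 to 40.8), and 160 of its 161 UMIs lay in 1 cluster (61.9 CPM), while Cdh6 was concentrated in another (33.0 CPM).

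Cdh19, which neural-crest-derived glia express, was 3204 CPM (3025 to 3392) in MWAT and 2271 CPM (2021 to 2543) in SWAT glia. Cdh10 was 121 CPM (88.4 to 162) in MWAT glia, with 3 UMIs in SWAT glia. Outside glia Cdh19 was highest in FAPs: 31.0 CPM in SWAT (23.8 to 39.8), 6.48 in NWAT (3.35 to 11.3), 5.54 in EWAT (2.77 to 9.92), 7.08 in MWAT (2.84 to 14.6) and 39.6 in HWAT (23.8 to 61.8). SWAT and HWAT overlapped and lay above the other 3 depots. In adipocytes Cdh19 was called higher in SWAT (8.87 CPM, 132 UMIs) and MWAT (4.84 CPM, 32 UMIs) and lower in EWAT, NWAT and HWAT. SWAT and MWAT were also the depots with enough glia for a class level. Glia held less Cdh2 than Cdh19 there (486 CPM of Cdh2 in SWAT and 576 in MWAT). The Cdh2 level that glial RNA would carry into MWAT adipocytes, given above, was already higher than their Cdh19 level. A carried level of Cdh19 into adipocytes is not given, and the part of glial RNA in these calls was not tested. RNA from glia would carry 64.6 CPM in SWAT and 309 in MWAT into FAPs if all glial marker counts there were carried, which is above the FAP level in both; the part of carry-over in the FAP level was not tested.

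Pcdh7 (chr5:57717967-58133230, plus strand), a delta-1 protocadherin, was the most counted member and the member present in most classes. In adipocytes it was 117 CPM in SWAT (111 to 122), 301 in NWAT (294 to 308), 354 in EWAT (346 to 362), 356 in MWAT (342 to 371) and 121 in HWAT (109 to 133). EWAT, MWAT and NWAT were high, SWAT and HWAT low, and the intervals of the 2 sets did not overlap; the highest depot was 3.06 times (interval 2.87 to 3.26) the lowest. The largest carried level from any class was 67.4 CPM, from smooth muscle in MWAT. FAP levels were 599 CPM in SWAT, 895 in NWAT, 642 in EWAT, 996 in MWAT and 471 in HWAT, high in MWAT and NWAT and lowest in HWAT. Mesothelial levels were 417 CPM in NWAT, 357 in EWAT, 522 in MWAT and 394 in HWAT, but clusters differed more than depots, with 632 and 50.7 CPM in the 2 main HWAT clusters. The FAP marker list summed to 7850 to 11907 CPM in mesothelial-like nuclei and their own list to 6069 to 7680 CPM, and RNA carried from FAPs would give Pcdh7 levels there of 578 CPM in NWAT, 392 in EWAT, 697 in MWAT and 249.6 in HWAT. Its part in the result was not tested.

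In contractile cells Pcdh7 was high. Mural smooth muscle had 471 CPM in SWAT (378 to 580.4), 1108 in EWAT (989.7 to 1237) and 1117 in MWAT (957 to 1296), with SWAT below the other 2, and its clusters had 1129, 107 and 967 CPM. MWAT smooth muscle had 1279.8 CPM (1247 to 1313) and Cajal-like nuclei 2897 CPM (2752 to 3049). Pericytes, which share the vessel wall with mural smooth muscle, had only 54.6 CPM in SWAT, 71.1 in NWAT, 89.2 in EWAT, 74.1 in MWAT and 14.8 in HWAT. In macrophages Pcdh7 was 62.0 CPM in SWAT, 36.7 in NWAT, 95.2 in EWAT, 67.9 in MWAT and 9.13 in HWAT, and HWAT lay below the others. For comparison, FAPs would carry 20.9 CPM in SWAT, 17.0 in NWAT, 19.7 in EWAT, 50.2 in MWAT and 16.0 in HWAT and adipocytes 16.1 CPM in SWAT, 29.7 in NWAT, 36.2 in EWAT, 28.6 in MWAT and 4.55 in HWAT. A macrophage cluster of 434 nuclei, 273 of them from EWAT, had 257 CPM.

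Pcdh9, another delta-1 member, was a glial gene that also differed between depots elsewhere. Glia had 1608 CPM (1481 to 1742) in MWAT and 2620.2 CPM (2351 to 2912) in SWAT. In FAPs it was 164 CPM in SWAT, 162 in NWAT, 195 in EWAT, 316 in MWAT and 117 in HWAT. MWAT was highest, 1.62 times (interval 1.39 to 1.88) EWAT, and HWAT lowest. The MWAT call was just past the rule, at 1.01 on the log2 scale. The part of RNA carried from glia in these FAP levels was not tested. A sub-cluster of 206 FAPs stood out, at 496 CPM of Pcdh9 and 427 of Cdh13, with 884 and 639.6 CPM in its 62 EWAT nuclei. Mesothelial Pcdh9 was 58.9 CPM in NWAT (49.0 to 70.2), 17.9 in EWAT (13.6 to 23.2), 137 in MWAT (127 to 148) and 94.7 in HWAT (87.6 to 102), with EWAT lowest, MWAT highest and no overlap. FAPs had more Pcdh9 than mesothelium in each of these depots, and FAP markers were high in mesothelial-like nuclei. The part of RNA carried from FAPs in mesothelial Pcdh9 was not tested. Mural smooth muscle had 5.35 CPM in SWAT, 206 in EWAT and 77.1 in MWAT, from 1, 59 and 12 UMIs, so SWAT was below the other depots. In adipocytes it was 3.83 CPM in SWAT, 1.83 in NWAT, 2.53 in EWAT, 12.7 in MWAT and 0.621 in HWAT; each was below the level carried from FAPs (5.88 CPM in SWAT, 2.76 in NWAT, 6.78 in EWAT, 18.4 in MWAT and 3.23 in HWAT).

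Pcdh19, a delta-2 protocadherin known for an X-linked epilepsy in which it is mutated, was 121 CPM in SWAT, 197 in NWAT, 295 in EWAT, 354 in MWAT and 267 in HWAT in pericytes and 203 CPM in SWAT, 419.6 in NWAT, 386 in EWAT, 514 in MWAT and 295 in HWAT without the cluster with endothelial markers, where it became restricted to pericytes. SWAT was lowest in both. In FAPs Pcdh19 was 161 CPM in SWAT (144 to 179), 179 in NWAT (161 to 199.8), 215 in EWAT (195 to 236), 205 in MWAT (178 to 235) and 102 in HWAT (75.5 to 135), with HWAT lowest and its interval below all others. In mesothelium it was 2.37 CPM in NWAT, 4.09 in EWAT, 23.5 in MWAT and 0.290 in HWAT: MWAT was 5.74 times (interval 3.23 to 11.1) EWAT, and 1 MWAT cluster held 47.4 CPM. These levels lay below those of FAPs in each depot, and the part of RNA carried from FAPs was not tested. Pcdh18 was even in FAPs, 20.0 CPM in SWAT, 29.2 in NWAT, 24.7 in EWAT, 22.2 in MWAT and 31.3 in HWAT, with all intervals overlapping. Outside the named classes, an unnamed cluster of 257 nuclei had Pcdh17 at 487 CPM, above its endothelial level, and Pcdh20 at 24.6; an unnamed cluster of 94 nuclei, 50 of them from SWAT, had Pcdh19 at 380.4, Cdh11 at 302 and Cdh5 at 278 CPM.

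Cdh23 and Pcdh15 bind each other in the tip links of inner-ear hair cells, but here they were highest in different cells. Pcdh15 (chr10:73099342-74649737, plus strand) was mesothelial: 228 CPM in NWAT (208 to 249), 38.7 in EWAT (32.2 to 46.2), 157 in MWAT (146 to 168) and 311 in HWAT (298 to 325). The order was HWAT, NWAT, MWAT and EWAT with no overlap, and HWAT was 8.04 times (interval 6.71 to 9.73) EWAT. Clusters within a depot spanned the same range: MWAT mesothelial clusters had 33.7 and 316 CPM. Mesothelial Cdh23 was 19.9 CPM in NWAT, 17.9 in EWAT, 17.6 in MWAT and 11.5 in HWAT. Cdh23 (chr10:60302748-60696490, minus strand) in adipocytes was 18.1 CPM in SWAT (16.0 to 20.4), 29.1 in NWAT (26.9 to 31.4), 40.3 in EWAT (37.8 to 43.0), 16.6 in MWAT (13.7 to 20.0) and 5.90 in HWAT (3.55 to 9.22). EWAT was highest, 1.39 times (interval 1.25 to 1.54) NWAT, HWAT was lowest, and SWAT and MWAT overlapped. Endothelial RNA would carry at most 0.866 CPM of Cdh23 into adipocytes. Macrophages had 44.2 CPM in SWAT, 41.7 in NWAT, 40.8 in EWAT, 33.9 in MWAT and 53.7 in HWAT, with all intervals overlapping, and FAPs 14.0 CPM in SWAT, 9.73 in NWAT, 9.07 in EWAT, 9.10 in MWAT and 12.5 in HWAT.

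**Figure D5:**
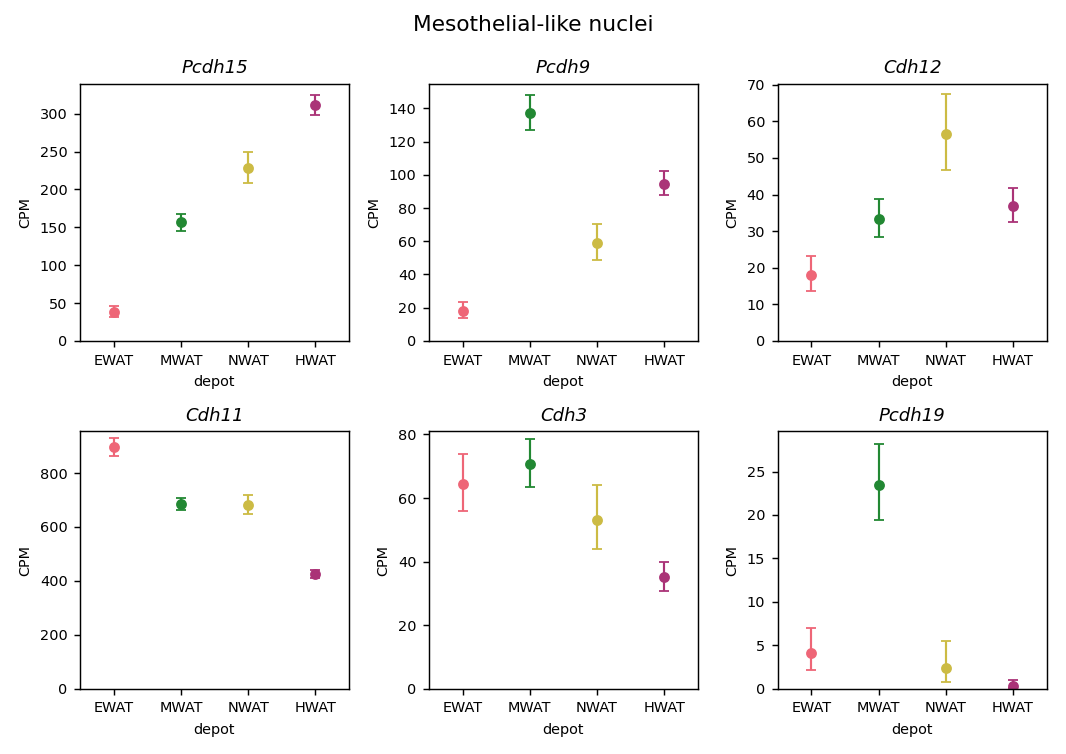
CPM of 6 members in mesothelial-like nuclei of the 4 depots with mesothelium; bars are exact Poisson 95% intervals. Pcdh15 runs from 38.7 CPM in EWAT to 311 in HWAT, Cdh11 from 426 in HWAT to 895 in EWAT, and Pcdh19 is high in MWAT.

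Of the 7D cadherins, named for their number of extracellular repeats, Cdh16 was 112 CPM (90.0 to 138) in EWAT epithelium and 103 CPM (67.9 to 150.00) in the 86 ciliated-like EWAT nuclei. Cdh17 (LI-cadherin, of gut lining) was 8.98 CPM in NWAT (1 UMIs), 0 in MWAT (0) and 14.1 in HWAT (49) in B cells, so the call rests on HWAT. Before nuclei were removed Cdh17 had 269 UMIs, 207 of them from MWAT, and 92 were left in retained nuclei. The call thus describes only the retained part. Cdh13 was 166 CPM in SWAT, 215 in NWAT, 173 in EWAT, 8.23 in MWAT and 0 in HWAT in pericytes and 43.1 CPM in SWAT, 0 in NWAT, 8.22 in EWAT, 0 in MWAT and 0 in HWAT without the cluster with endothelial markers; Cdh5 was 143 CPM in SWAT, 168 in NWAT, 83.6 in EWAT, 57.6 in MWAT and 0 in HWAT and then 73.9 CPM in SWAT, 6.99 in NWAT, 16.4 in EWAT, 25.7 in MWAT and 0 in HWAT. Both were thus lower in each depot where they were detected once that cluster was left out. Cdh13 was 193 CPM in SWAT, 449.6 in EWAT and 315 in MWAT in mural smooth muscle, where RNA carried from any 1 class would give at most 90.6 CPM in SWAT, 83.4 in EWAT and 130.1 in MWAT.

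Cdh13 was 8.07 CPM in NWAT, 11.3 in EWAT, 13.1 in MWAT and 3.48 in HWAT in mesothelium and 7.37 CPM in SWAT, 11.0 in NWAT, 16.9 in EWAT, 8.93 in MWAT and 4.30 in HWAT in macrophages, and Cdh5 13.5 CPM in SWAT, 6.32 in NWAT, 9.45 in EWAT, 7.14 in MWAT and 5.37 in HWAT in macrophages and 9.01 CPM in SWAT, 12.97 in NWAT, 13.6 in EWAT, 7.08 in MWAT and 4.17 in HWAT in FAPs. The Cdh13 levels were below those carried from endothelium in each depot (28.1 CPM in NWAT, 40.2 in EWAT, 19.2 in MWAT and 15.6 in HWAT for mesothelium and 22.4 CPM in SWAT, 20.0 in NWAT, 30.4 in EWAT, 19.3 in MWAT and 4.75 in HWAT for macrophages). Pcdh1 in FAPs was 5.01 CPM in SWAT, 5.94 in NWAT, 10.1 in EWAT, 6.06 in MWAT and 6.25 in HWAT, from 50 UMIs. Cdh8, Cdh18, Cdh22, Cdh24, Cdh26, Pcdh8, Pcdh10 and Pcdh20, with 10 to 142 UMIs in all retained nuclei, reached 50 UMIs and 10 CPM together in no class, and Cdh7 and Cdh15 had 6 each. For these 10 members no level in a named class is given beyond the map of levels by class.

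The partners of the cadherins were counted from lists of related genes by the same rules. Of 11 catenins and actin linkers, which anchor cadherins to the actin skeleton, 1 was class-restricted (Ctnnd2, delta-2 catenin, in Cajal-like nuclei at 352 CPM), against 13 of 31 members and 18.4% of all genes. In endothelium 3 of 9 differed between depots (35.0% of all genes) and in mesothelium 3 of 11 (29.9%), near the background in both. Adipocytes had 6 of 11 (43.8%), FAPs 4 of 10 (36.6%), macrophages 3 of 10 (35.1%) and pericytes 4 of 8 (57.0%). B cells had 5 of 7 (52.9%), T or NK cells 3 of 5 (48.1%) and mural smooth muscle 0 of 6 (21.0%). Mesothelial Ctnnd2 was 9.97 CPM in NWAT, 20.1 in EWAT, 258 in MWAT and 175 in HWAT, high in MWAT and HWAT. The catenin of endothelial junctions Jup (plakoglobin) was 153 CPM in SWAT, 243 in NWAT, 186 in EWAT, 90.7 in MWAT and 70.9 in HWAT, high in NWAT and low in HWAT. Of 9 Fat, Dachsous and Celsr cadherins, giant relatives that set tissue polarity, 2 of 8 tested were restricted (Fat3 at 905 CPM in Cajal-like nuclei and Dchs2 at 99.8 in FAPs), and 5 of 5 tested in FAPs differed between depots (36.6% of all genes). Dchs2 there was 37.1 CPM in SWAT, 155 in NWAT, 122 in EWAT, 67.7 in MWAT and 117 in HWAT, lowest in SWAT. Of 9 desmosomal cadherins only Dsg2 and Dsc2 had 20 UMIs, and mesothelial Dsg2 was 1.90 CPM in NWAT, 0 in EWAT, 37.2 in MWAT and 10.3 in HWAT.

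Nectins, the other adhesion family of cell junctions, had 1 of 4 restricted (Nectin2 in lymphatic endothelium, 158 CPM), against 18.4% of all genes, and calsyntenins, which are cadherin-related, 2 of 3 (Clstn3 in adipocytes and Clstn2 in ciliated cells). Of 6 repressors known to lower cadherin transcription, 3 were restricted: Twist2 in FAPs (65.9 CPM), Zeb2 in macrophages (3822 CPM) and Snai2 in pericytes (19.7 CPM). In FAPs 3 of 6 repressors differed between depots, against 36.6% of all genes. Twist1 was 68.6 CPM in SWAT, 21.1 in NWAT, 28.7 in EWAT, 12.1 in MWAT and 20.8 in HWAT and Twist2 108 CPM in SWAT, 76.2 in NWAT, 54.9 in EWAT, 52.6 in MWAT and 37.5 in HWAT, both highest in SWAT.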

How the data were processed

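Nuclei of 5 pooled depot libraries, 1 per depot, were profiled by 10x 3′ single-nucleus RNA sequencing. The authors deposited UMI counts per gene and nucleus, and per the file headers the counting was by Cell Ranger 6.0.1; the build was mm10 and Seurat was also used per the submitters' processing notes. Whether intronic reads were counted is not given in the sources used here. Median depth was 1210 to 2648 UMIs per retained nucleus, and all intervals cover counting error only.

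Nuclei with under 200 genes or over 10% mitochondrial UMIs were removed, as were doublets called by scoring neighbours against simulated doublets. Clustering used 2000 variable genes, 40 components, 20 neighbours and Leiden resolution 1, without the 34 members; classes were then named from marker lists. The naming thresholds, the splits into sub-clusters and the need for 50 nuclei in 3 depots for a depot comparison were set after seeing the data. The members, lists and rules were chosen with earlier results of these data known.

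Counts were summed per class and depot and divided by the class total (CPM). Log2 values for depot differences used a prior of 0.5 counts. The text gives levels by depot for members with 50 UMIs and 10 CPM in a class, and names every class-restricted member, Cdh10 with 48 UMIs among them. With 1 library per depot there is no replicate, no test and no p-value; differences are called by size alone, and 20 or more UMIs were needed. The calling code was tested on simulated data. Other filters, scalings, thresholds and left-out depots were tried as alternatives. Software was Python 3.11.15, NumPy 2.4.6, SciPy 1.17.1, pandas 2.3.3, scikit-learn 1.9.0, igraph 0.11.9, leidenalg 0.10.2, R 4.3.3 and edgeR 4.0.16, which gave the TMM scaling of one alternative only.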

Additional observations from a re-analysis of the deposited data

How the results depend on the processing

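The count of class-restricted members, 13, became 22 with a minimum of 1 count and 8 with a 3-fold rule, which kept Cdh19 but lost Cdh2, Cdh13, Pcdh7, Pcdh15 and Pcdh17; it was 12 to 14 when 1 depot was left out. With no doublets removed it was 12, of which 7 were shared, with Cdh2, Cdh6, Cdh9, Cdh12, Cdh20 and Pcdh17 lost. Calls were also lost for Cdh13 and Cdh17 with at most 2% mitochondrial UMIs (11 left), Pcdh7 with at least 500 genes per nucleus (12), Cdh17 and Cdh20 at clustering resolution 2 (12, with Pcdh18 gained), and Cdh6, Cdh10 and Cdh17 with a minimum of 100 counts (10). Members that differed between depots changed as follows, given as counts of called members only. The number tested and the share of all genes also change with the setting. These counts are therefore not read as a gain or loss against the background. With no doublets removed they were 8 in B cells, 7 in T or NK cells and 11 in macrophages. With the mean of each nucleus's CPM, pericytes had 3. With a minimum of 100 counts there were 0 in B cells, 0 in T or NK cells, 11 in adipocytes, 4 in endothelium, 2 in macrophages, 7 in mesothelium, 1 in mural smooth muscle and 3 in pericytes, since fewer members were tested. With a minimum of 1 count there were 23 in B cells, 23 in FAPs, 15 in T or NK cells, 26 in endothelium, 26 in macrophages, 27 in mesothelium, 13 in mural smooth muscle and 20 in pericytes. With a 3-fold rule FAPs had 3, T or NK cells 1, mural smooth muscle 2 and pericytes 3. Leaving out 1 depot gave 3 to 5 in FAPs (3 without HWAT), 0 to 2 in T or NK cells, 17 to 19 in adipocytes, 5 to 8 in endothelium (5 without SWAT), 2 to 5 in macrophages (2 without HWAT), 9 to 13 in mesothelium (9 without HWAT) and 4 to 6 in pericytes. Leaving out the pericyte-like cluster with endothelial markers, an alternative chosen after seeing the data, left 2 in pericytes.

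Of 593 alternative values for the 57 named member and class levels, none changed sign past the rule; 26 of the planned ones, 14 with a depot left out and 4 of those added after seeing the data moved by more than the counting error. No paired analysis was possible because each depot is 1 library and no fit across samples can be made. Low totals limit the classes with few nuclei.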
